A study of Mus musculus with 23 samples.

Results

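The proteasome subunit genes were described in gastrocnemius of male mice (strain C57BL/6J), in which the study compared 2 treadmill regimens at 2 ages. Members were all mouse symbols that start with Psma, Psmb, Psmc, Psmd or Psme followed by a digit, matched through the transcript accession of each array probe. The RefSeq gene table held 52 such symbols, of which 45 had a probe and 42 were tested, among 23708 features tested in all. Psma8, a testis subunit, was above background on 1 array and Psmb11, a thymus subunit, on 0 arrays, so neither was tested, and neither was Psmd6, whose spots were all marked as outliers on at least 1 array. Psme2 and 6 pseudogenes had no probe matched by accession. Psmc3ip, Psme3ip1 and Psme2b met the naming rule without being established subunits: the products of the first pair bind a subunit or a related protein, and Psme2b is a Psme2-like copy.

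The proteasome degrades proteins that carry ubiquitin chains. Its barrel-shaped core is built of outer alpha rings, which gate the entrance, and inner beta rings, of which Psmb5 (chymotrypsin-like), Psmb6 (caspase-like) and Psmb7 (trypsin-like) encode the constitutive proteolytic subunits. A regulatory particle of ATPases (Psmc genes) and non-ATPase subunits (Psmd genes) binds, unfolds and feeds in the substrate. Interferon and immune cells replace the proteolytic subunits by Psmb8, Psmb9 and Psmb10, which form the immunoproteasome that makes peptides for class I antigen presentation. In muscle, the ubiquitin-proteasome system carries much of the turnover of contractile proteins, and the transcription factor Nfe2l1 raises proteasome subunit genes together when the proteasome is short.

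The old HIIT group (n = 4) trained daily for 4 weeks in 3 runs at 27 m/min that lasted 2 min each, separated by recovery at 5 m/min for 1 min. The old MICT group (n = 4) trained daily for 4 weeks in a single run of 45 min at a speed of 13 m/min. The old CON group (n = 4) was placed on a stopped treadmill. The adult HIIT (n = 4), adult MICT (n = 3) and adult CON (n = 4) groups were treated in the same way. Training began at 24 months of age in old and 5 months in adult mice, and muscle was taken at 25 or 6 months after 12 h of rest. HIIT stands for high-intensity intermittent training and MICT for moderate-intensity continuous training. The labels give 9 mice per group and do not say whether each array holds RNA of 1 mouse, so p-values measure the spread between arrays.

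The RefSeq promoters of 5 members are shown because they cover both kinds of catalytic subunit (Psmb5 and Psmb6 against Psmb8 and Psmb9) and Psmc6, the member with the largest rise below. Each run is the 250 bases before the transcription start in GRCm38.p6, written 5′ to 3′ on the gene's strand. Capitals mark matches, on either strand, to TGACNNNGC, the core of the antioxidant response element that Nfe2l1 and Nfe2l2 bind, to GAAANNGAA, the core of the interferon-stimulated response element, or to CCAAT, the NF-Y box.
Psmb5 chr14:54617996-54618245 (- strand): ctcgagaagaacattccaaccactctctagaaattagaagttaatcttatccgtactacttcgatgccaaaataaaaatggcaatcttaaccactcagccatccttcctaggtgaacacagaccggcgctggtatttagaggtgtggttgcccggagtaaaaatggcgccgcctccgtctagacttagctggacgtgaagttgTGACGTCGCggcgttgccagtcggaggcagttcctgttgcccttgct
Psmb6 chr11:70525107-70525356 (+ strand): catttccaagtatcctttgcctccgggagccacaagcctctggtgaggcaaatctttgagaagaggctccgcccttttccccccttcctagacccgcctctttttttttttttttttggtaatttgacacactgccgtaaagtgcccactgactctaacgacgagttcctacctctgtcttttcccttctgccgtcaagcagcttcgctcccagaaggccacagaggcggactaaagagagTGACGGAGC
Psmc6 chr14:45329574-45329823 (+ strand): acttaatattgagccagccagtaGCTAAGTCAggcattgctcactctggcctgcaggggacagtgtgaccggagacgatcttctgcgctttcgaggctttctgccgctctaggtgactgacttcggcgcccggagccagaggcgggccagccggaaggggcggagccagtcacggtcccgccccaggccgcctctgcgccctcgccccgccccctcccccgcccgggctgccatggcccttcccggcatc
Psmb8 chr17:34197945-34198194 (+ strand): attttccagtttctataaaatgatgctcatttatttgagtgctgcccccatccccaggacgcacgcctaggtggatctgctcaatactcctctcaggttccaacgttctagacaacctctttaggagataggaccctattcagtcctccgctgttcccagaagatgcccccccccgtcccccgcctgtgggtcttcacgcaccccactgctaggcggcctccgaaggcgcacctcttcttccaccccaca
Psmb9 chr17:34187331-34187580 (- strand): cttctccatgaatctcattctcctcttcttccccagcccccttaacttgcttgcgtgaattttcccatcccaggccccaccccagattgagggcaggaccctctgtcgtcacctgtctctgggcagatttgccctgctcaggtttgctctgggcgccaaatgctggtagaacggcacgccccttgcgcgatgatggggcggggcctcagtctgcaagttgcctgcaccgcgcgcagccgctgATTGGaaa
In Psmb5 and Psmb6 the capitals are TGACNNNGC on the gene's strand, in Psmc6 the same motif on the opposite strand, and in Psmb9 CCAAT on the opposite strand. Psmb8 held none of the 3 motifs in this window.

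The RefSeq table held 43 promoters of 39 member genes, searched from 250 bases before to 50 bases after the start. TGACNNNGC was in 6 of the 43 (14%) and in 12.4% of all 32851 promoters. GAAANNGAA was in 6 member promoters (14%) against 8.56% of all, those of Psmb3, Psmb4, Psmc2, Psmd4, Psmd9 and Psme1, and CCAAT in 16 (37.2%) against 37.4% of all. A match to one motif can overlap a match to another. These shares describe letters in a short window.

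All 10 muscle fibre markers were above background on every array, and their score differed between arrays of the old groups (given below with the subunits). Between arrays, 47.2% to 58.9% of gene spots were above background, and 0 gene spots were saturated. Markers of other cells differed between arrays of the old groups. The lymphocyte score (the mean of the B and plasma cell score and the T and NK cell score, each a median log2 deviation from the adult CON mean) ranged from 0.78 to 3.45 in old HIIT, from -0.02 to 0.30 in old MICT and from 1.44 to 4.74 in old CON, and between -0.55 and 0.37 over the adult arrays. Old CON 1 and 2 had the highest values, 4.74 and 3.99. The neutrophil score ranged from 1.33 to 5.76 in old HIIT, -0.10 to 4.30 in old MICT and 0.33 to 7.40 in old CON. The old HIIT and old MICT arrays shared slide 3, old CON and adult MICT slide 2, and adult HIIT and adult CON slide 1. For every other pair of groups, slide and group cannot be told apart by a comparison within a slide. In whole muscle, fewer cells of a type and less RNA per cell cannot be told apart.

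After MICT in old mice, most constitutive proteasome genes rose and the immunoproteasome genes did not. Of the 42 members, 31 were higher and 2 lower in old MICT than in old CON (limma, adjusted p under 0.05), where 21.3% of all features were higher and 9.03% lower. The median log2 difference was 0.50 over the members and 0.19 over all features. All 7 alpha-ring genes tested, all 4 structural beta-ring genes, all 3 constitutive proteolytic genes, all 6 ATPase genes and 9 of the 10 other regulatory-particle genes rose. In 25 members every old MICT array was above every old CON array, which held for 16.3% of all features.

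Those 30 constitutive subunit genes moved together from array to array. Their median deviation from the adult CON mean was 0.65, 0.58, 0.19 and 0.17 on old MICT arrays 1 to 4, against -0.32, -0.33, 0.05 and -0.07 on old CON arrays 1 to 4. The old MICT arrays were all above the old CON arrays, and each group was split: old MICT 1 and 2 were the high pair and old CON 1 and 2 the low pair. The low pair is also the pair with the highest lymphocyte scores. Other marker scores moved as well: the muscle fibre score was 0.23, 0.09, -0.21 and 0.35 in old MICT against -0.45, -0.62, 0.32 and -0.37 in old CON, and the adipocyte score was 0.24, 2.22, 0.64 and 0.91 in old MICT against 3.51, 2.44, 1.93 and 0.11 in old CON. The slow-twitch fibre score averaged -1.34 in old MICT and -0.27 in old CON. The lymphocyte score did not overlap between the groups, so the covariate fit given next cannot tell lymphocytes and group apart. The part of these markers in the difference was not tested.

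The 31 rises, like the calls over all features, rest on those arrays and on the shared estimate of spread. The number called higher was 18 without old MICT 1. It was 0 without old CON 1 and 2 (0.747% of all features called higher), without old MICT 1 and 2 (0.16%) and with the lymphocyte score as a covariate (0.0211%). It was also 0 with slide in an additive model (0%), or with the spread estimated from these 8 arrays alone (0%). In these last 5 fits the calls of all features went as well, from 21.3%, so the loss is not particular to the members. The direction held for all 33 called members in each of these fits except the additive one, where it held for 31. The median over the 30 constitutive genes stayed between 0.34 and 0.56 in the last 5 of them while that of all features lay between 0.06 and 0.19. The additive model allowed no interaction of age and training. Its estimate here is adult HIIT minus adult CON plus old MICT minus old HIIT, each within a slide, and uses no old CON array.

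**Figure D1:**
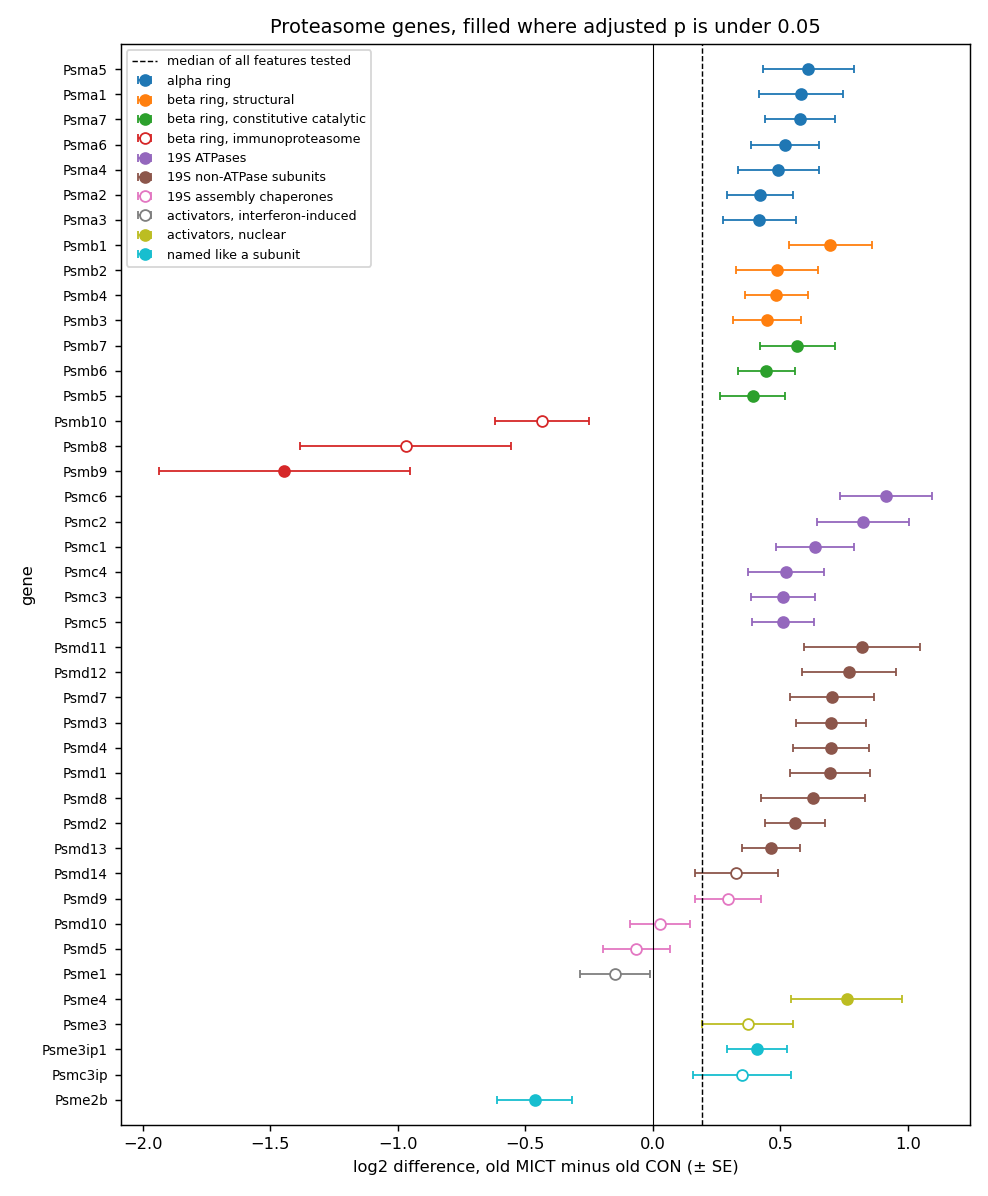
Log2 difference of each tested member, old MICT minus old CON, with limma's standard error as bars, ordered by role; filled points were called at an adjusted p under 0.05 and the dashed line is the median of all features (0.19). The constitutive subunits lie between 0.33 and 0.91, and Psmb8, Psmb9 and Psmb10 lie below 0.

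In the alpha ring, Psma5 changed most, with deviations from the adult CON mean of 1.07, 0.74, 0.37 and 0.30 on old MICT arrays 1 to 4 and -0.08, -0.19, 0.10 and 0.21 on old CON arrays 1 to 4. The groups did not overlap, and old MICT 4 lay close to old CON 4. The log2 difference was 0.61 ± 0.18 (SE, n = 4 and 4, limma adjusted p = 0.0171). Psma3 changed least of the 7, by 0.42 ± 0.14 (adjusted p = 0.0334, limma), and there the groups overlapped.

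Among the structural beta-ring genes Psmb1 rose most, by 0.70 ± 0.16 (limma adjusted p = 0.007). Its deviations were 0.94, 0.61, 0.32 and 0.06 on the old MICT arrays, against -0.57, -0.24, -0.05 and 0.01 on the old CON arrays. The old MICT arrays were all higher, by a small margin between the closest arrays, old MICT 4 and old CON 4. Psmb3 rose least, by 0.45 ± 0.13 (adjusted p = 0.0192, limma).

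The proteolytic genes of the constitutive core rose too. Psmb5 had 0.34, 0.44, 0.13 and 0.13 in old MICT against -0.26, -0.33, 0.10 and -0.04 in old CON, a log2 difference of 0.39 ± 0.13 (limma adjusted p = 0.0285). Psmb6 had 0.33, 0.52, 0.11 and 0.14 in old MICT against -0.33, -0.34, 0.06 and -0.07 in old CON, a difference of 0.44 ± 0.11 (limma adjusted p = 0.00972). Psmb7 had 0.22, 0.31, -0.05 and 0.20 in old MICT against -0.76, -0.46, -0.21 and -0.14 in old CON, a difference of 0.57 ± 0.15 (limma adjusted p = 0.0104). In all 3 genes the groups did not overlap, and the gap between the closest arrays was small beside the range within a group. None of the 3 was called with quantile scaling, where the differences of Psmb5, Psmb6 and Psmb7 were 0.12, 0.16 and 0.27, or with the lymphocyte covariate, where they were 0.17, 0.22 and 0.16. Psmb5 was also lost without old CON 1 or 2 or old MICT 1 or 2 in turn (adjusted p 0.0728 to 0.0980).

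**Figure D2:**
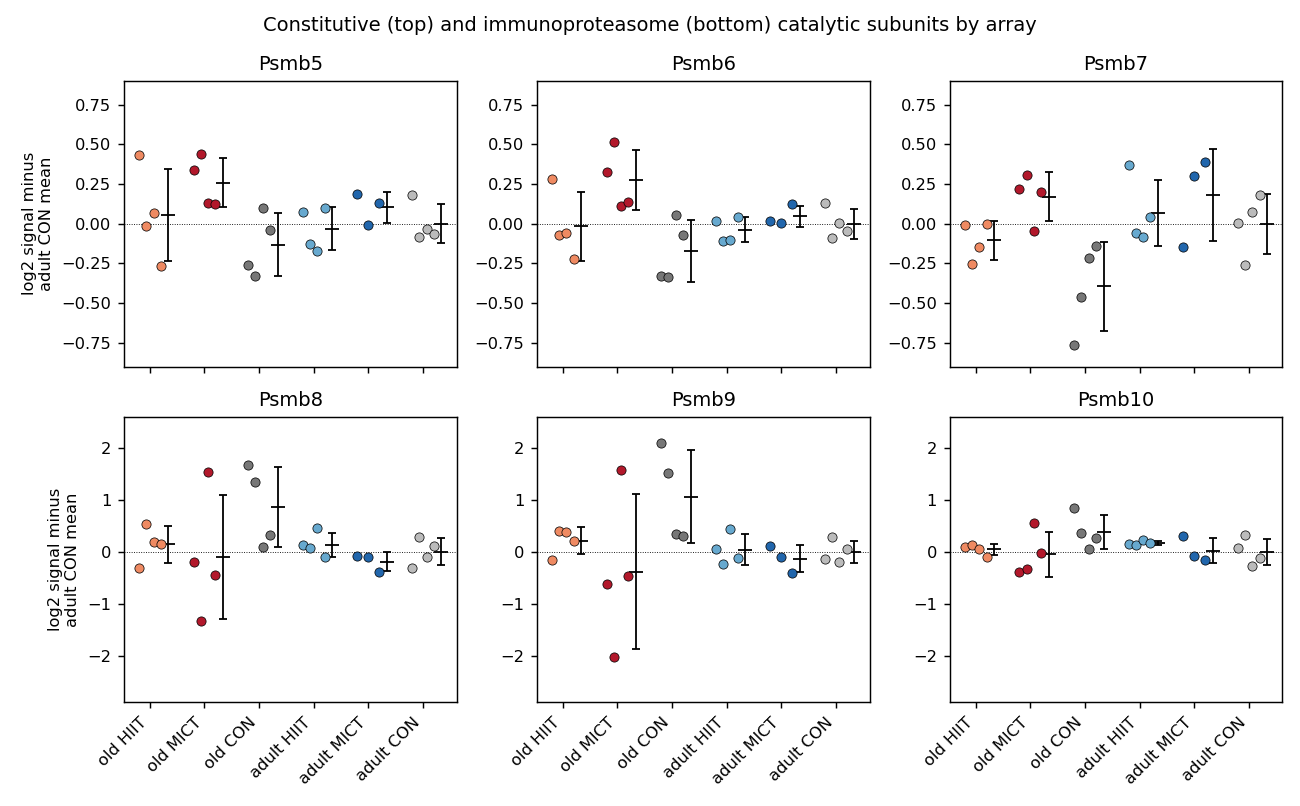
Log2 signal of the constitutive (top) and immunoproteasome (bottom) proteolytic genes on each array, relative to the adult CON mean; points are arrays, dashes the group mean and bars the SD (n = 4, adult MICT n = 3), and the 2 rows have different vertical scales. Old MICT lies above old CON in the top row, and in the bottom row old CON 1 and 2 and old MICT 3 stand above the other arrays.

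The ATPase genes of the regulatory particle held the largest rise. Psmc6 had 1.09, 0.99, 0.38 and 0.31 in old MICT against -0.34, -0.33, 0.00 and -0.23 in old CON, a difference of 0.91 ± 0.18 or 1.88-fold (limma adjusted p = 0.00375). The lowest old MICT array, at 0.31, was above the highest old CON array, at 0.00. Psmc2 rose by 0.82 ± 0.18 (adjusted p = 0.00542, limma), also without overlap, and its second probe gave 0.79. Psmc5 had the smallest rise of the 6, 0.51 ± 0.12 (limma adjusted p = 0.00726). Psmc6 was not called when the 2 groups were fitted alone (adjusted p = 0.0525, limma), with slide as an additive term (0.53, adjusted p = 0.725), with the lymphocyte covariate (0.83, adjusted p = 0.19), without old CON 1 and 2 (0.80, adjusted p = 0.0662) or without old MICT 1 and 2 (0.57, adjusted p = 0.0952).

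Among the non-ATPase subunits, Psmd11, a lid subunit that bridges to the core, rose by 0.82 ± 0.23 (limma adjusted p = 0.0134). Its values were 1.12, 0.92, 0.31 and -0.01 in old MICT against -0.68, -0.40, 0.01 and 0.12 in old CON, so the groups overlapped on old MICT 4. Psmd12, another lid subunit, rose by 0.77 ± 0.18, with 1.12, 1.01, 0.28 and 0.28 in old MICT against -0.28, -0.21, 0.19 and -0.09 in old CON, without overlap (adjusted p = 0.00762, limma). Psmd4, which binds ubiquitin chains, rose by 0.70 ± 0.15, the scaffold subunit Psmd1 by 0.69 ± 0.16, and the lid subunits Psmd3 and Psmd7 by 0.70 ± 0.14 and 0.70 ± 0.16, all without overlap. Psmd13 rose least of the 9, by 0.46 ± 0.12. Psmd14, the deubiquitinase that strips the chain from the substrate, was the exception, at 0.33 ± 0.16 (limma adjusted p = 0.127).

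Few genes of proteins that assemble or activate the particle passed the test. The base assembly chaperones Psmd5, Psmd9 and Psmd10 differed by -0.06 ± 0.13, 0.30 ± 0.13 and 0.03 ± 0.12, and 0 of the 3 were called (limma). At an unadjusted p under 0.05 (limma) there was 1 of the 3, and 44.1% of all features. Of the nuclear activators, Psme4 rose by 0.76 ± 0.22 (limma adjusted p = 0.0159), with 0.36, 0.15, -0.29 and -0.09 in old MICT against -0.77, -0.80, -0.35 and -0.99 in old CON, and Psme3 was at 0.37 ± 0.18 (adjusted p = 0.114). Psme1, which interferon induces, was at -0.15 ± 0.14 (limma adjusted p = 0.41). Psme3ip1 rose by 0.41 ± 0.12 (adjusted p = 0.0157, limma), and Psmc3ip, a recombination factor named after a subunit it binds, was at 0.35 ± 0.19 (adjusted p = 0.163).

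**Figure D3:**
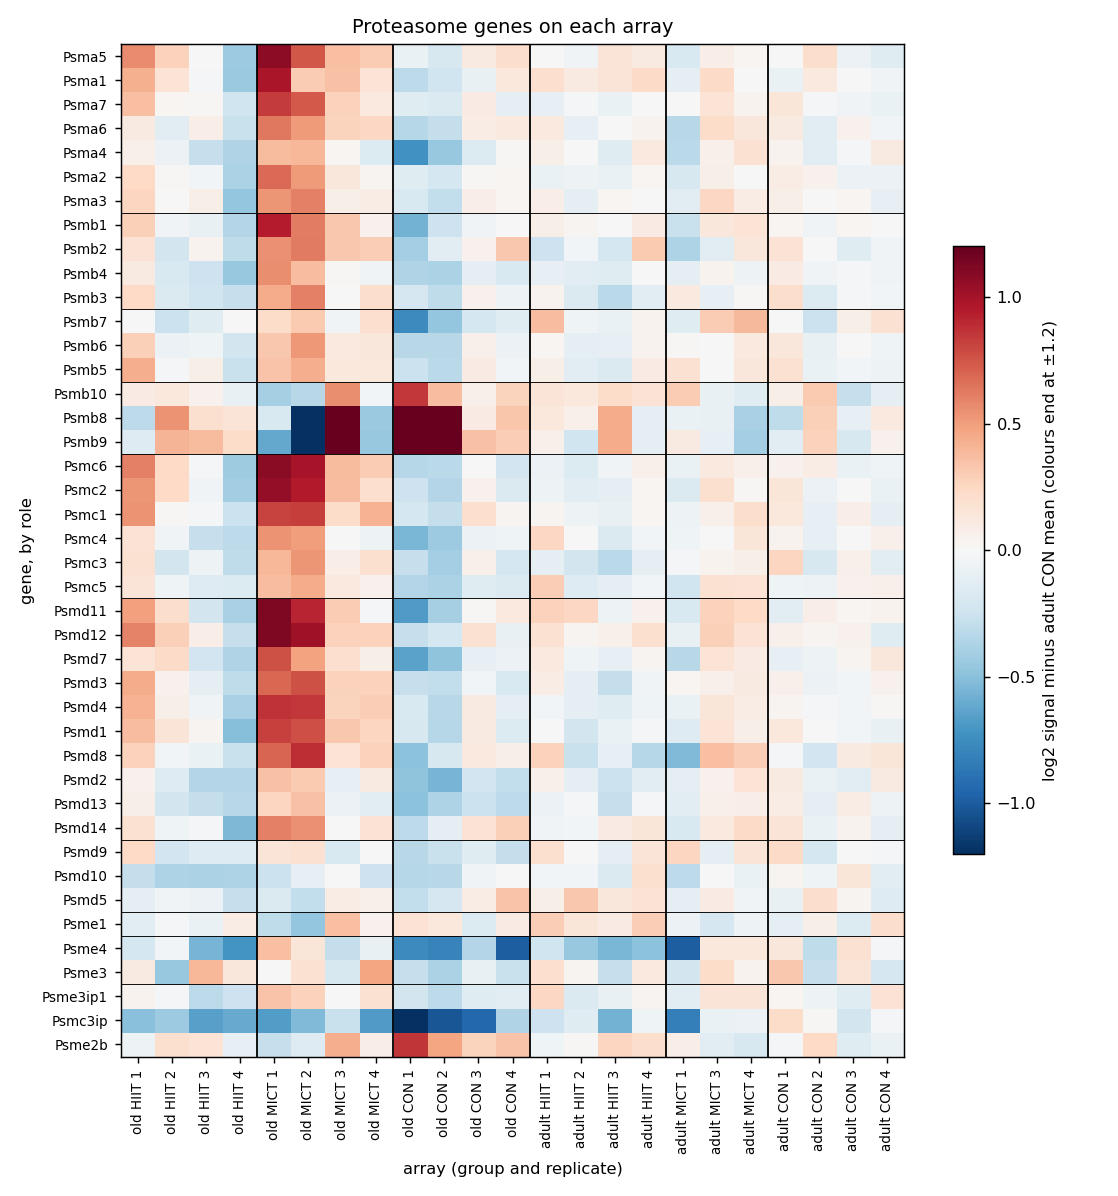
Log2 signal of the 42 tested members (rows, by role) on the 23 arrays (columns, by group), relative to the adult CON mean, with colours ending at ±1.2. In 27 of the 30 constitutive subunits old MICT 1 and 2 are the highest 2 arrays, and Psmb8 and Psmb9 are highest on old CON 1 and 2 and old MICT 3.

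The immunoproteasome genes lay on the other side of 0, and Psmb8 and Psmb9 varied more within these groups than the other members. Psmb9 had -0.61, -2.03, 1.58 and -0.46 in old MICT against 2.10, 1.51, 0.35 and 0.30 in old CON, a difference of -1.44 ± 0.49 (limma adjusted p = 0.033). Psmb8 had -0.19, -1.32, 1.54 and -0.44 in old MICT against 1.68, 1.35, 0.10 and 0.33 in old CON, a difference of -0.97 ± 0.41 (limma adjusted p = 0.0784). Psmb10 had -0.40, -0.33, 0.56 and -0.03 in old MICT against 0.85, 0.37, 0.06 and 0.26 in old CON, a difference of -0.44 ± 0.18 (limma adjusted p = 0.0749). In all 3 genes the groups overlapped, and old MICT 3 lay near or above the higher old CON arrays.

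The call for Psmb9 was lost when any one of old CON 1, old CON 2, old MICT 1, old MICT 2 or old MICT 4 was left out, with differences of -1.10, -1.30, -1.37, -0.89 and -1.42. Without old MICT 3, Psmb8 was called at -1.52 and Psmb10 at -0.64, and without old CON 3 they were called at -1.22 and -0.54. Psmb10 was also called with quantile scaling (-0.71). Psme2b, the other member called lower, differed by -0.46 ± 0.15 (limma adjusted p = 0.0251), and each of its 3 probes was called lower. Whether these probes also read Psme2 RNA was not tested. Its call was lost without old CON 1 (-0.34), old CON 2 (-0.47), old MICT 1 (-0.37) or old MICT 2 (-0.40).

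The arrays with high immunoproteasome genes did not all have high lymphocyte scores. The median deviation of Psmb8, Psmb9 and Psmb10 was 1.54 on old MICT 3 against 1.68 and 1.35 on old CON 1 and 2, with lymphocyte scores of 0.06 on old MICT 3 against 4.74 and 3.99 on old CON 1 and 2. On old MICT 3 the neutrophil score was 4.30, against 0.74 and 0.75 on old CON 1 and 2. The higher neutrophil scores of old HIIT 1 (5.76) and old CON 4 (7.40) came with immunoproteasome scores of -0.15 and 0.30. The macrophage marker score was -0.05, -0.47, 0.21 and -0.56 on old MICT arrays 1 to 4. On old CON arrays 1 to 4 it was 0.51, 0.59, -0.13 and 1.33. The part of these cells in the immunoproteasome values was not tested. With the lymphocyte score as a covariate, the difference of Psmb9 was -0.35 (limma adjusted p = 0.843) and that of Psmb8, 0.07 (adjusted p = 0.971). In that fit 0.0211% of all features were called higher and 0.0633% lower. The score did not overlap between old MICT and old CON, so the fit cannot tell lymphocytes and group apart. In the main fit, without that covariate, 21.3% of all features were higher and 9.03% lower in old MICT than in old CON. There, of 7 B and plasma cell markers tested, 0 were higher and 5 lower. Of 10 T and NK cell markers, 0 were higher and 6 lower. In old MICT, 4 B and plasma cell markers and 4 T and NK cell markers were above background on every array, and 3 and 4 on no array, among the first Cd79a, which was above background on no adult array either.

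**Figure D4:**
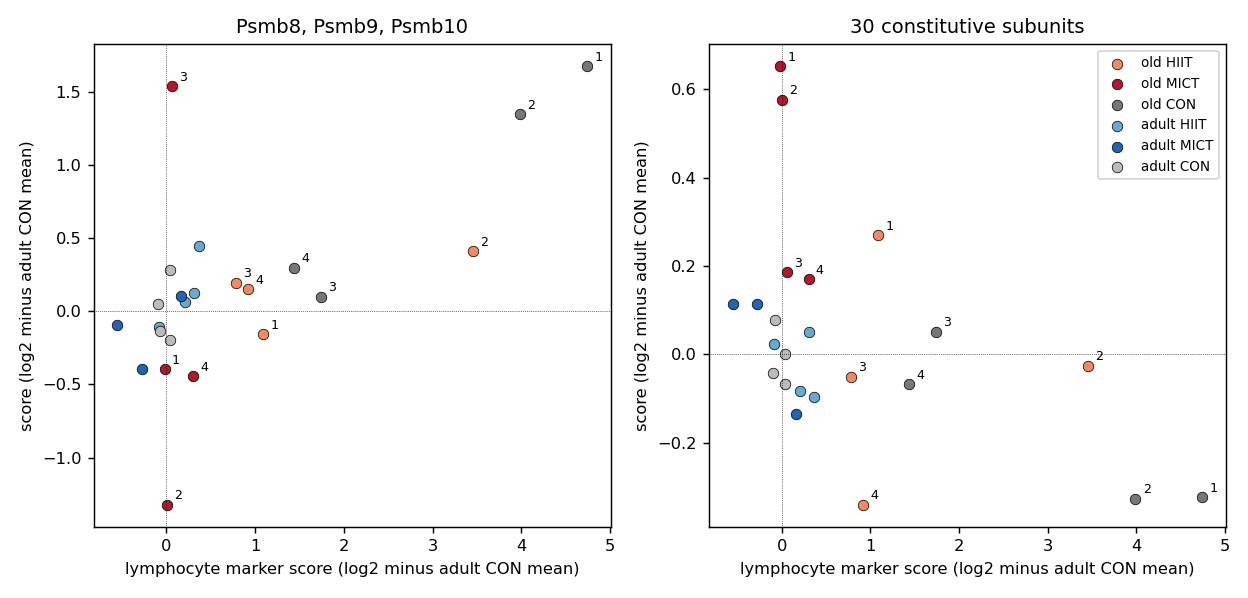
Score of the 3 immunoproteasome genes (left) and of the 30 constitutive subunit genes (right) against the lymphocyte marker score on each array, all as medians of log2 deviations from the adult CON mean; numbers are replicates of the old groups. Old CON 1 and 2 are far right in both panels, and old MICT 3 is high on the left panel at a lymphocyte score of 0.06.

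Each immunoproteasome gene was then set against the constitutive gene whose product it replaces. The log2 ratio of Psmb9 over Psmb6, relative to adult CON, was -0.94, -2.55, 1.47 and -0.60 in old MICT against 2.43, 1.85, 0.29 and 0.37 in old CON. The ratio of Psmb8 over Psmb5 was -0.53, -1.76, 1.41 and -0.57 in old MICT against 1.94, 1.68, 0.00 and 0.37 in old CON. The ratio of Psmb10 over Psmb7 was -0.62, -0.64, 0.60 and -0.23 in old MICT against 1.61, 0.83, 0.28 and 0.41 in old CON. The groups overlapped in all 3 ratios through old MICT 3. The differences were -1.89 ± 0.98 for Psmb9 over Psmb6 (exact permutation p = 0.114, 2-sided), -1.36 ± 0.81 for Psmb8 over Psmb5 (exact permutation p = 0.143) and -1.0 ± 0.42 for Psmb10 over Psmb7 (exact permutation p = 0.0857). Over the 27 ratio tests of 9 comparisons, the smallest exact permutation p was 0.0571 and the smallest adjusted p 0.441, where 4 arrays against 4 allow no p below 0.0286.

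HIIT in old mice gave no called member. Of the 42 members, 0 were called between old HIIT and old CON (limma), where 0.494% of all features were called. At an unadjusted p under 0.05 (limma) there was 1 member, against 15.8% of all features. The members' median difference was 0.15, against 0.08 over all features. Psmc6 had 0.61, 0.24, -0.01 and -0.43 in old HIIT against -0.34, -0.33, 0.00 and -0.23 in old CON, a difference of 0.32 ± 0.18 (adjusted p = 0.381, limma). The old HIIT arrays spanned the whole old CON range. Psmb9 had -0.15, 0.41, 0.38 and 0.22 in old HIIT against 2.10, 1.51, 0.35 and 0.30 in old CON (-0.85 ± 0.49, limma adjusted p = 0.398). The smallest p of a member was that of Psme2b, at -0.44 ± 0.15 (adjusted p = 0.178), followed by Psmb7 at 0.29 ± 0.15 (adjusted p = 0.334) and Psmb10 at -0.34 ± 0.18 (adjusted p = 0.37).

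Old HIIT and old MICT, which shared a slide, were set against each other directly. Of the 42 members, 37 were lower in old HIIT, with a median of -0.39 against -0.09 over all features, yet 0 were called (limma; 28 at an unadjusted p under 0.05, as were 16.8% of all features), and 0% of all features were called. The member adjusted p was at least 0.22. All 30 constitutive subunits were lower, with a median of -0.44. Psmd4 had 0.42, 0.07, -0.05 and -0.39 in old HIIT against 0.86, 0.84, 0.26 and 0.30 in old MICT (-0.55 ± 0.15, limma adjusted p = 0.22). Psmd3 differed by -0.48 ± 0.14 and Psma6 by -0.47 ± 0.13, with the same adjusted p, and the groups did not overlap for Psma6. Psmb8, Psmb9 and Psmb10 were at 0.25 ± 0.41, 0.59 ± 0.49 and 0.10 ± 0.18.

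**Figure D5:**
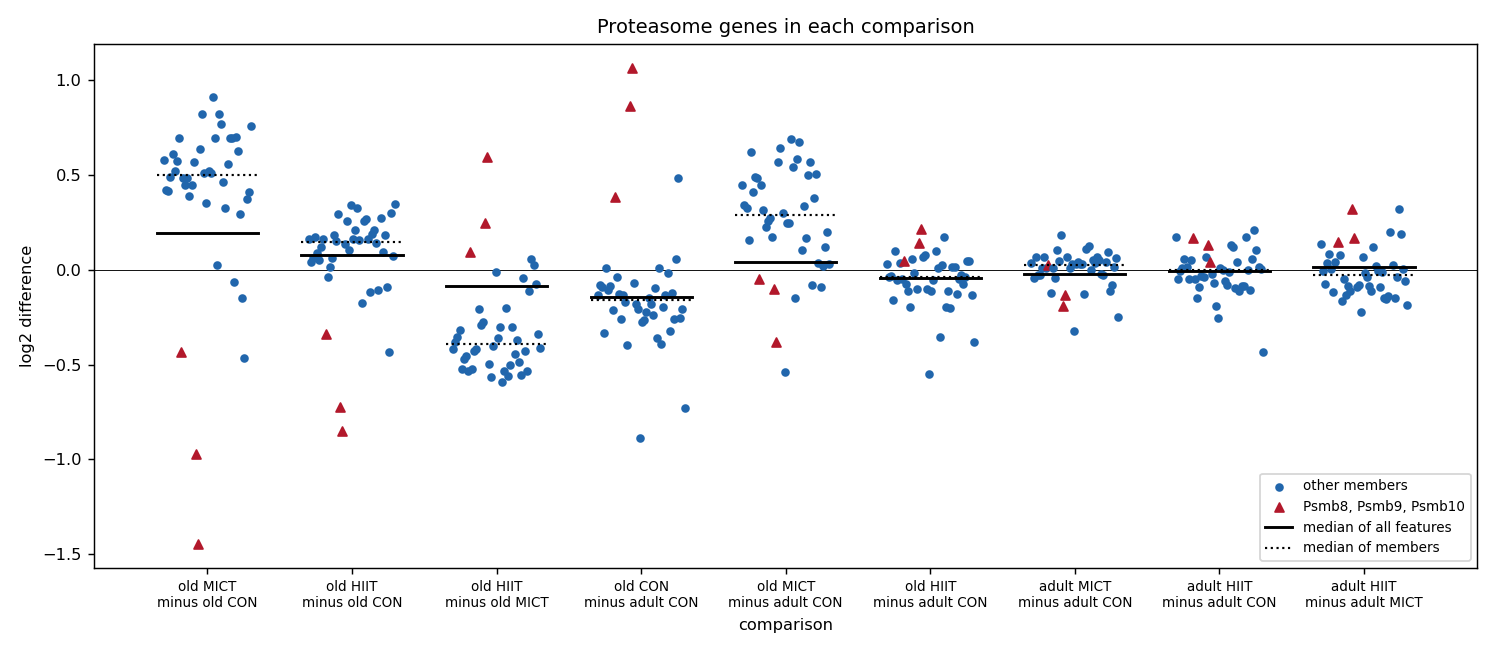
Log2 difference of each tested member in 9 comparisons, each named as the first group minus the second; triangles are Psmb8, Psmb9 and Psmb10, solid bars the median of all features and dotted bars the median of the members. The members stand above the median of all features for old MICT against old CON and against adult CON, and the comparisons that share a group share its arrays.

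In adult mice neither regimen moved a member past the threshold. Between adult HIIT and adult CON, on the same slide, 0 of 42 members and 0% of all features were called (limma). At an unadjusted p under 0.05 (limma) there were 0 members, against 5.09% of all features. The member median was -0.00. Psme4 had the smallest p, at -0.43 ± 0.22 (adjusted p = 0.922), followed by Psmc3 at -0.19 ± 0.12 and Psme1 at 0.21 ± 0.14. Between adult MICT and adult CON, 0 members and 0% of all features were called (limma), with a member median of 0.03. At an unadjusted p under 0.05 (limma) there were 0 members, against 2.05% of all features. The smallest p-values were those of Psmc3ip at -0.32 ± 0.21, Psmb7 at 0.18 ± 0.16 and Psme4 at -0.25 ± 0.24. Without adult MICT 1, Psmc3ip was at -0.08 and Psme4 at 0.13, on the other side of 0. Psmc6 was at -0.08, 0.12 and 0.06 in adult MICT against 0.05, 0.09, -0.08 and -0.05 in adult CON. Psmb9 was at 0.11, -0.10 and -0.40 in adult MICT against -0.13, 0.28, -0.19 and 0.05 in adult CON. Between adult HIIT and adult MICT, 0 members and 0% of all features were called (limma). At an unadjusted p under 0.05 (limma) there was 1 member, Psme1 at 0.32 ± 0.15, against 7.75% of all features.

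The response to MICT was compared between ages by the interaction in the same fit. Of the 42 members, 0 were called (limma; 27 at an unadjusted p under 0.05, as were 25.3% of all features), where 0.692% of all features were called, so a different response at the 2 ages was not shown for any single member. The estimates were 0.88 ± 0.27 for Psmc6 (adjusted p = 0.0929, limma), 0.63 ± 0.20 for Psmd3 (adjusted p = 0.1) and 1.01 ± 0.32 for Psme4 (adjusted p = 0.101), each the old difference minus the adult difference. Without old CON 3 the interaction called 4 members higher. The share of all features called in that fit is not reported here. For HIIT, 0 members and 0% of all features had a called interaction (limma). At an unadjusted p under 0.05 (limma) there were 3 members, against 11.4% of all features.

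Few members differed between sedentary mice of the 2 ages, near the share of all features. Old CON was on slide 2 and adult CON on slide 1, so age and slide cannot be told apart here. Between old CON and adult CON, 1 member was higher and 4 lower, where 4.56% of all features were higher and 8.31% lower, and the member median of -0.16 lay near that of all features, -0.14. Psme4, the nuclear activator that also promotes histone degradation, had -0.77, -0.80, -0.35 and -0.99 in old CON against 0.14, -0.30, 0.18 and -0.02 in adult CON, a difference of -0.73 ± 0.22 (limma adjusted p = 0.0364). Every old CON array was lower. The second Psme4 probe was at -0.71 and was not called (limma over probes, adjusted p = 0.0663). Psmc3ip differed by -0.89 ± 0.19 (limma adjusted p = 0.0111), with -1.23, -1.03, -0.94 and -0.36 in old CON against 0.22, 0.01, -0.22 and -0.02 in adult CON. The scaffold subunit Psmd2 fell by 0.39 ± 0.12 (adjusted p = 0.0375, limma) and Psmd13 fell by 0.36 ± 0.12 (adjusted p = 0.0459, limma). Psme2b was 0.48 ± 0.15 higher (limma adjusted p = 0.038). Its other probes were at 0.29 and 0.42 and were not called (limma over probes, adjusted p = 0.111 and 0.342). The groups did not overlap in any of the 5 called members. Over all 42 members, 2 were higher and 6 lower without overlap. Of all features, 4.44% were higher and 10.7% lower without overlap, so these counts are not particular to the members. The calls fell to 0 with the lymphocyte covariate, with slide as an additive term, with only the groups compared and without old CON 1 and 2. In those fits at most 0.118% of all features were called higher and at most 0.0464% lower. The lymphocyte score did not overlap between old CON and adult CON, so the covariate fit cannot tell lymphocytes and group apart. Without old CON 1, old CON 2, adult CON 1, adult CON 3 or adult CON 4, 1 member was called lower and 0 higher, and without old CON 4, 2 were called lower.

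The immunoproteasome genes were above adult levels in old controls on average. Psmb9 was 1.07 ± 0.49 higher (limma adjusted p = 0.138), Psmb8 0.87 ± 0.41 higher (limma adjusted p = 0.151) and Psmb10 0.39 ± 0.18 higher (limma adjusted p = 0.15), none of them past the threshold. For Psmb9 the lowest old CON array, at 0.30, lay just above the highest adult CON array, at 0.28. Old CON 1 and 2, which had the highest lymphocyte scores, carried these averages: without them the differences were 0.33 for Psmb9, 0.22 for Psmb8 and 0.16 for Psmb10, and with the lymphocyte covariate they were -0.07, -0.21 and -0.02. As said above, that covariate fit cannot tell lymphocytes and group apart. With array weights all 3 were called, at 1.35 for Psmb9, 1.13 for Psmb8 and 0.48 for Psmb10. That setting called 10.5% of all features higher, against 4.56% in the main fit.

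Against adult CON, old MICT and old HIIT shared controls with the age comparison. Old MICT had 0 called members (limma; 22 at an unadjusted p under 0.05, as were 18.5% of all features), where 0.54% of all features were called, with a member median of 0.29 against 0.04 over all features. In 14 members every old MICT array was above every adult CON array, which held for 5.93% of features. Psmc6 was 0.69 ± 0.18 higher (limma adjusted p = 0.0719), Psmd4 0.57 ± 0.15 (adjusted p = 0.074) and Psmc1 0.57 ± 0.15 (adjusted p = 0.0758). Without old MICT 4, 12 members were called, without old MICT 3, 9, without old HIIT 1, 4, and without old HIIT 4, 1. The shares of all features called in these fits are not reported here, so these counts cannot be read as particular to the members. Old HIIT had 0 called members against adult CON (limma), where 0.0169% of all features were called. At an unadjusted p under 0.05 (limma) there were 2 members, against 11.8% of all features. Psmd10 had the smallest p of a member, at -0.35 ± 0.12 (limma adjusted p = 0.264).

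Genes that act with the proteasome were counted in the same fit of old MICT against old CON, where 21.3% of all features were higher and the median of all features was 0.19. With slide as an additive term, or with only the groups compared, 0% of all features were called higher. The rises of these lists were therefore not called in those 2 fits either. Of 9 genes for the regulation of proteasome genes, 8 rose and 0 fell, with a median of 0.95. Maff, a small Maf protein that pairs with Nfe2l1 and Nfe2l2, rose by 1.66 ± 0.48 (limma adjusted p = 0.0165), and Ddi2, the protease that cuts Nfe2l1 into its active form, by 1.59 ± 0.38 (adjusted p = 0.00779, limma). Ddi2 had 2.51, 2.11, 0.21 and 0.62 in old MICT against -0.40, -0.25, -0.20 and -0.07 in old CON. Its high arrays were old MICT 1 and 2, the same pair as for the subunits. Nfe2l1 rose by 0.54 ± 0.18 (limma adjusted p = 0.0314), and Nfe2l2 was at 0.66 ± 0.27 (adjusted p = 0.0673).

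Of 6 ubiquitin and ubiquitin-activating genes, 3 rose (median 0.27), among them Ubb, a stress-responsive ubiquitin gene (0.82 ± 0.19, limma adjusted p = 0.00744), while Rps27a, which encodes ubiquitin fused to a ribosomal protein, was at 0.08 and was not called. Of 10 genes for the p97 segregase and shuttle factors, 8 rose (median 0.56), with Zfand5 at 1.18 ± 0.28 and Nploc4 at 0.95 ± 0.20. Of 11 assembly factors and associated subunits, 6 rose (median 0.35), with the ubiquitin receptor Adrm1 at 0.81 ± 0.17 and the deubiquitinase Usp14 at 0.67 ± 0.17, and the chaperone Psmg1 was at -0.17. Of 10 class I antigen processing genes, 0 were called (limma; 4 at an unadjusted p under 0.05, near the 44.1% of all features), all 10 were below 0, and the median was -0.56. Tap1, the peptide transporter gene that is a neighbour of Psmb9 in the major histocompatibility complex, had 0.11, -1.28, 1.91 and -0.50 in old MICT against 1.98, 1.90, -0.44 and 0.03 in old CON. The high arrays of Tap1 were the 3 that were high for Psmb8 and Psmb9.

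Between old CON and adult CON, of the same lists, Sem1, a small subunit of the regulatory particle, fell by 0.28 (limma adjusted p = 0.0371) and the shuttle factor Ubqln2 fell by 0.49 (adjusted p = 0.0129). H2-K1, a class I heavy chain gene, was 0.93 higher (limma adjusted p = 0.0421). In this comparison 4.56% of all features were higher and 8.31% lower, and the counts of each list are not reported here. Without old CON 1 and 2, 0.0717% of all features were called higher and 0.0295% lower.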

How the data were processed

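RNA of gastrocnemius muscle was hybridised to 23 one-colour Agilent arrays. Per the file headers, the authors' deposited intensity values are Agilent Feature Extraction 12.0.3.1 processed signals, background-subtracted within each array and not scaled between arrays. The deposited series table holds a score per spot, made in a way not given in the sources used here, which follows the log10 signal (r at least 0.9995 on each array, medians -0.3 to -0.1). Its differences are thus on another scale than log2. For old MICT against old CON, Psmb5, Psmb6 and Psmb7 differed there by 0.05, 0.075 and 0.125. Whether the scores were rounded was not examined.

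Spots marked as outliers were left out, log2 signals were averaged over the spots of each probe, and each array's 75th percentile was subtracted. Probes above background on at least 3 arrays were tested. Symbols came from a RefSeq table (GRCm38.p6) matched by accession and used for names only, and 28331 of 29786 RefSeq probes matched. The brightest tested probe stood for a gene, and 15465 of the 23708 features had a symbol.

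limma 3.58.1 in R 4.3.3 fitted 6 group means to all arrays, with an intensity trend and 2-sided tests. P-values were adjusted (Benjamini-Hochberg) over all features of each of 11 comparisons, and a call is an adjusted p under 0.05. The array number limits the precision. Values after ± are standard errors. Pairs of genes were tested by exact permutation. Values given per array are log2 deviations from the adult CON mean. The fit was tested on simulated data. The named genes were the called members without overlap that changed most, Psmb5 to Psmb10, Psme1 and Psme2b, the extremes of each role, the 3 smallest p-values where nothing was called, and 2 genes of each pathway list with Nfe2l1 and Nfe2l2; some genes of these lists are not reported here. Others that are named, such as Psmc3ip in the MICT comparison, were chosen after their values were seen.

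Members and lists were chosen with earlier results of these data known. Alternatives were quantile scaling, the percentile over probes above background on all arrays, normexp on the median signals with an offset of 50, other filters and variance models, array weights, all probes of a gene, a replicate block, slide as an additive term, only the groups compared, the deposited table, a fold of at least 1.5, a lymphocyte covariate and arrays left out. With slide as an additive term, age and training had no interaction, so differences came from groups that shared a slide. No arrays were identical (r at most 0.992). Replicate numbers were not used to pair arrays in the main fit. Of 55 same-numbered pairs, 20 had a correlation of deviations over 0.1 (range -0.44 to 0.40). Pairs with different numbers were not examined, so these values cannot decide whether the numbers pair arrays.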

Additional observations from a re-analysis of the deposited data

Results flagged for a closer look

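Dixon's test for an outlying array was applied in 100 groups of 4 arrays (8 genes, 9 role scores and 3 ratios in the 5 groups of 4) and marked 3 of them (3%), where chance marks about 1 in 20. The structural beta-ring score was 0.14 on adult CON 1, against -0.04 to -0.01 on the other adult controls. The nuclear activator score was -0.24 on old MICT 3, against 0.16 to 0.19 on the other old MICT arrays. The log2 ratio of Psmb9 over Psmb6, relative to adult CON, was -0.44 on old HIIT 1, against 0.44 to 0.48 on the other old HIIT arrays.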

How the results depend on the processing

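For old MICT against old CON, 31 members were called higher, where 21.3% of all features were. The number was 14 with quantile scaling (12.8% of all features) and 16 with the percentile over probes above background on all arrays (6.69%). In the deposited table, whose scores follow the log10 signal, it was 5 (9.54%), and with a fold of at least 1.5 it was 13 (12%). It was 0 with slide as an additive term, with only the groups compared, with the lymphocyte covariate, without old CON 1 and 2 and without old MICT 1 and 2 (at most 0.747%). The number lower (2, and 9.03% of all features) was 1 with normexp (5.32%) or a fold of at least 1.5 (8.18%). It was 0 with the last 5 of those settings (at most 0.953%). Leaving out 1 array gave 18 to 32 higher and 0 to 4 lower. The median of all features was 0.19, and 0.06 with quantile scaling and -0.03 with the percentile over probes above background on all arrays. The median of the 30 constitutive genes was 0.56 in the main fit, 0.27 with quantile scaling and 0.34 with that percentile. With slide as an additive term Psme4 was at -0.023 and Psme2b at 0.0791, the only called members that changed sign. That estimate adds adult HIIT minus adult CON to old MICT minus old HIIT. It uses no old CON array, so it is not the same comparison corrected for slide. For old CON against adult CON, the number higher (1, and 4.56% of all features) was 4 with array weights (10.5%). It was 0 with normexp (3.44%), without the filter on dim probes (2.4%), with the mean of all probes (4.61%) and with a fold of at least 1.5 (4.36%). It was also 0 with slide, only the groups compared, the lymphocyte covariate and without old CON 1 and 2 (at most 0.118%). The number lower (4, and 8.31% of all features) was 10 with array weights (21.6%). It was 2 with quantile scaling (7.55%), the deposited table (6.89%) or a fold of at least 1.5 (5.15%), and 1 with the other percentile (3.31%) or no filter (3.25%). It was 0 with slide, only the groups compared, the lymphocyte covariate and without old CON 1 and 2 (at most 0.0464%). Leaving out 1 array gave 0 to 1 higher and 1 to 5 lower. Array weights called 1 higher (7.21% of all features) and 2 lower (6.32%) for adult HIIT against adult MICT. They called 2 lower for old HIIT against adult CON (1.9%) and 3 higher in the MICT interaction (7.62%). The deposited values called 1 lower for old HIIT against old CON (0.101%), and quantile scaling 1 higher for old MICT against adult CON (0.312%). Leaving out 1 array gave 0 to 12 higher for old MICT against adult CON and 0 to 4 in the MICT interaction, and 0 in each of the other comparisons. The shares of all features called in the fits that left out 1 array are not reported here. The replicate block called 31 higher and 2 lower for old MICT against old CON, and 1 higher and 3 lower for old CON against adult CON, where Psmd13 was lost (adjusted p = 0.0547). No ratio passed the threshold under any setting, which these group sizes rarely allow. With TGACTCAGC in place of TGACNNNGC, 0 of 43 member promoters matched, against 0.454% of all. Signal over background limits what dim probes can show.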
